A study of Mus musculus with 6 samples.

Results

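Isolated YBX1 regions that lay far from any protein-coding gene and were found in more than 1 replicate numbered 362 of the 8156 regions obtained by merging 3 peak lists. A region was taken where peaks of at least 2 lists overlapped by 1 bp or more and every pileup was 80 tags or higher. None of its peaks could share length, summit offset and pileup with another peak of its list, and no other merged region could lie within 10 kb. Its midpoint had to be outside every protein-coding gene and over 100 kb from the nearest end of one. The pileup is the number of extended tags over a peak's summit. Pileup and recurrence chose these regions, so the regions were selected on measured values and the levels of their peaks are given below as a description. They are called desert regions here.

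YBX1 belongs to the Y-box family. Its cold shock domain binds DNA and RNA, and the protein is known for roles in transcription, splicing and translation. Y-box proteins were named for a promoter element that holds an inverted CCAAT box. Gene deserts are long stretches without protein-coding genes. They hold much of the repeated sequence of a mammalian genome, and some of them carry enhancers that act on distant developmental genes.

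All libraries came from 1 cell line, BaF3, a mouse line derived from pro-B cells, which carried JAK2 V617F, an activated form of the kinase that signals from cytokine receptors. The cells were untreated and were grown in RPMI1640 with 10% FBS and 1 mM sodium pyruvate. Chromatin immunoprecipitation followed by sequencing gave 3 YBX1 immunoprecipitates and 3 inputs without antibody, and the authors called peaks in each immunoprecipitate over the input that carries its number. The groups are therefore YBX1 antibody (n = 3) and input (n = 3), with no other genotype, time or agent. Separate cultures are not named in the labels, so spreads between lists may be technical. Positions are on GRCm38.

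The 3 lists held 7053, 2628 and 2827 peaks. After removal of repeated tags the immunoprecipitates held 67.0 to 69.7 M tags and the inputs 67.0 to 87.6 M. List 1 was the longest, and its input was the deepest. A region missing from a list was not called there, and the lists hold no value for it.

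The first question was how the desert regions were reached from the shared ones. Peaks of at least 2 lists were found in 3048 merged regions, or 37.4% of all. Of the 3040 on assembled chromosomes, 1069 lay in gene deserts, 700 inside protein-coding genes and 1271 outside genes but within 100 kb of one. Among the 1069, another merged region within 10 kb was present for 575. A peak with a copy of equal length, summit offset and pileup occurred in 266, and a pileup under 80 in 46. The single most frequent reason for exclusion was a close neighbour, which alone removed 397 regions, while copies alone removed 92 and low pileup alone 38. The remaining 362 make up 33.9% of the shared regions in deserts. A region near Fbxo8 with a lowest pileup of 75.9 and another near Cited2 with 78.8 fell just outside the pileup limit. Just inside it were regions near Ccdc54 and Ddx18, both with a lowest pileup of 80.7, and one near Adgra3 with 81. At the distance limit, regions 99.9 kb from Klhl25 and from Elavl4 were left out, and regions 101.6 kb from Tmem64 and 102.5 kb from Grm7 were kept.

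Peaks of all 3 lists were present in 183 desert regions, or 50.6%, against 42.4% of all shared regions and 53.7% of the 188 isolated shared regions inside protein-coding genes. These genic regions had passed the same limits on pileup, copies and neighbours. The other 179 desert regions had peaks in 2 lists, namely 72 without a peak in list 3, 94 without one in list 2 and 13 without one in list 1. List 1 thus held a peak in 349 of the 362, list 2 in 268 and list 3 in 291. Since recurrence chose the regions, nothing is read from these shares.

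Enrichment over input was modest in the desert regions. Fold, as the caller gave it, divides the pileup by the local input after 1 is added to both. In list 1 it ran from 1.34 to 7.21 with a median of 1.97 (349 peaks), in list 2 from 1.30 to 7.08 with a median of 1.77 (268 peaks), and in list 3 from 1.33 to 4.33 with a median of 1.89 (291 peaks). The mean of the 3 medians was 1.88 ± 0.0959 (SD, n = 3). Folds of 2 or more were seen at 166, 71 and 113 of the desert peaks of lists 1, 2 and 3, or 47.6%, 26.5% and 38.8%. Over all peaks of those lists it was 33.7%, 28.9% and 32.6%. The share was thus above the whole list in lists 1 and 3 and below it in list 2. Nothing is read from this, because the pileup limit came from the same contrast.

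The pileups lay between the limit of the rule and the highest value that the caller allows. With 1 tag kept per position and strand and an extension of 160 bp, a pileup can reach 320 tags, or 307.5 in list 3 after scaling. Desert peaks had median pileups of 175, 172 and 163.4 tags in lists 1, 2 and 3. Peak widths had medians of 302, 277.5 and 291 bp, and the merged regions were 164 to 1384 bp wide, with a median of 317. The widest, chr13:85844306-85845689, lay 199.8 kb from Cox7c, a gene of the respiratory chain, with folds of 1.53, 1.44 and 1.49.

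Local input was high at nearly all of these sites. At the median desert peak it was 21.4, 22.8 and 20.5 times the genome-wide level in lists 1, 2 and 3, or 21.6 ± 1.16 (SD, n = 3). A local input under 5 times the genome-wide level was found in 1 desert peak of list 1, 1 of list 2 and 0 of list 3. Over all peaks such low input occurred in 2.5%, 7.61% and 5.06% of lists 1, 2 and 3. High input was not particular to the desert regions. The median over all peaks was higher, at 28.2, 26.4 and 25.2 times the genome-wide level in lists 1, 2 and 3. The pileup limit of 80 tags acts on this measure too, since pileup rose with local input, so nothing is read from the shares or the difference in medians.

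Fold fell as local input rose. Spearman's rho between them was -0.75, -0.76 and -0.74 in lists 1, 2 and 3 across 349, 268 and 291 regions, and that between pileup and local input was 0.91, 0.94 and 0.92. These are across regions that share libraries, fold has local input in its denominator, and pileup has a ceiling, so the relation is a description. A fold of 3 or more occurred in 18, 4 and 6 desert peaks, and in these the local input was at most 10.6, 9.41 and 9.40 times the genome-wide level. When the regions were split by local input into 3 classes of about 120, median folds in list 1 were 2.31, 2.06 and 1.66 from the lowest class to the highest. Peaks of all 3 lists were present in 53.7%, 48.3% and 49.6% of these classes. Both recurrence and pileup chose the regions, so nothing is read from either series of values.

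**Figure D1:**
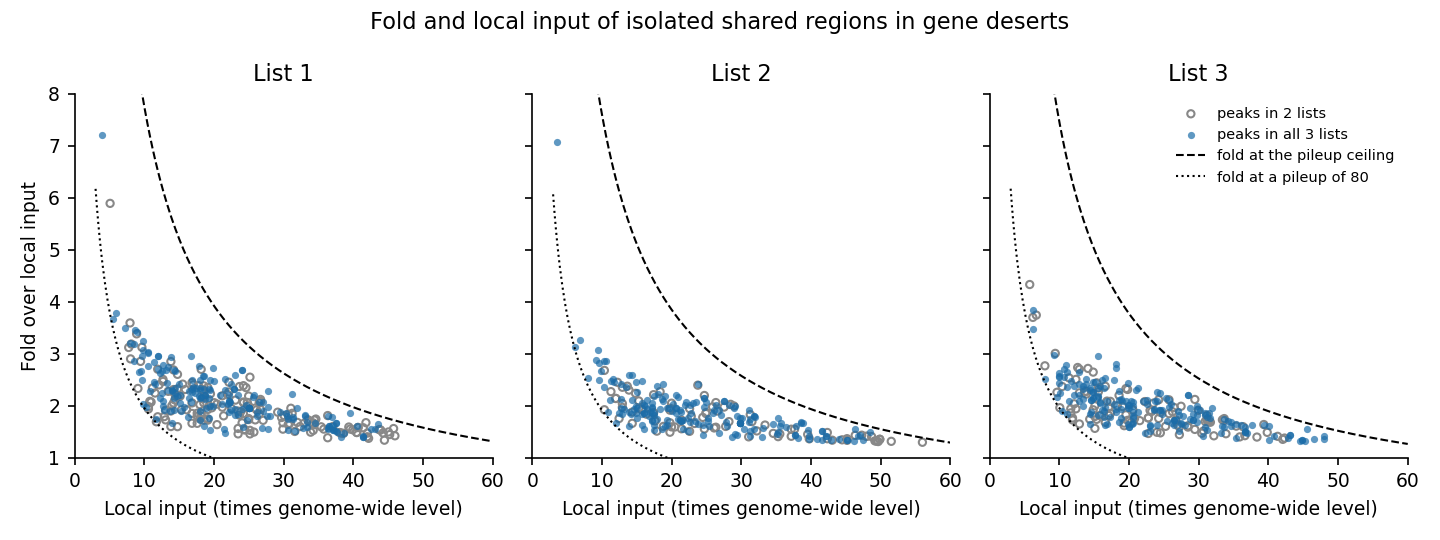
Fold over local input (vertical axis) against local input in multiples of the genome-wide level (horizontal axis) for each desert region in lists 1, 2 and 3; filled points have peaks in all 3 lists, open points in 2, and the curves give the fold at the pileup ceiling and at a pileup of 80. Folds of 3 or more occur only at a local input of at most 10.6 times the genome-wide level, and most points lie between 1.5 and 2.5.

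The lists were close to each other in where the desert peaks lay and in their pileups. Summits lay a median of 4 bases apart in each pair of lists, and they were within 50 bases in 87.1% of the 255 regions found in lists 1 and 2. The same held for 85.6% of 277 in lists 1 and 3 and 83.7% of 196 in lists 2 and 3. Pearson's r of pileup between lists was 0.98 in each pair, and r of local input was 0.97, 0.96 and 0.96 for lists 1 and 2, 1 and 3, and 2 and 3. Folds were less alike, with r of 0.88, 0.82 and 0.75. In isolated shared regions inside genes, summits were within 50 bases in 82.8%, 87.3% and 80.2% for the same pairs, and r of pileup was 0.96, 0.97 and 0.96. All of these are across regions selected for overlapping peaks and high pileup, and regions are not replicates. The closeness of summits and pileups is therefore a description.

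In the 183 regions with peaks of all 3 lists, the coefficient of variation between lists had a median of 3.36% for pileup, 7.89% for local input and 9.0% for fold. List 1 had the highest fold in 130 of the 183 regions and list 2 the lowest in 111. Fold was at least 2 in all 3 lists in 45 of these regions, or 24.6%, and at least 2.5 in 10, or 5.46%. A −log10 q of at least 5 in every list was reached by 127, or 69.4%. These counts over all 3 lists were not made for other regions. Over single lists, 311 of 349, 188 of 268 and 228 of 291 desert peaks had a −log10 q of at least 5, or 89.1%, 70.1% and 78.4%. Of all peaks of lists 1, 2 and 3 it was 82.1%, 60.3% and 69.1%. Isolated shared regions inside genes, chosen by the same limits, had 89.1%, 71.9% and 79.5%. Pileup and recurrence chose the desert regions, so nothing is read from these counts and shares.

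**Figure D2:**
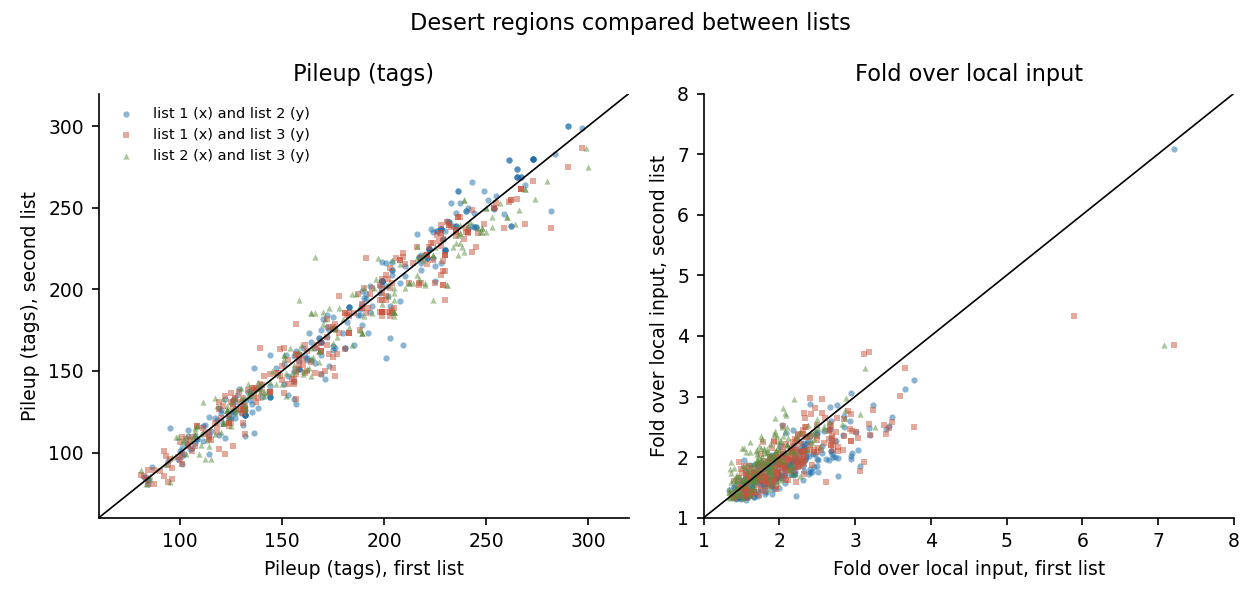
Pileup in tags (left) and fold over local input (right) of the same desert region in 2 lists, with a colour and marker for each pair of lists and a line where both are equal. Pileups lie along the line in each pair (r = 0.98), while folds scatter more and are mostly higher in list 1 than in list 2.

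Among desert regions with peaks in all 3 lists, the best ranked had the lowest mean local input of the 12 named. Within each list the desert peaks were ordered by fold, and a region took its poorest place in any list, relative to the number of desert peaks there. Fold has local input in its denominator, so this ranking itself favours low input. First of those with peaks in all 3 lists came chr18:49391706-49391910, which lay 304.3 kb from Dtwd2 and 1343 kb from Eno1b, the neighbours on its right and left. Its pileups were 122, 109 and 98.98 tags in lists 1, 2 and 3. Local input there was 3.97, 3.53 and 6.19 times the genome-wide level, and fold averaged 6.04 ± 1.90 (SD, n = 3). List 3 had the lowest pileup, the highest local input and the lowest fold of the 3.

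Second was chr5:49754604-49754881, in a desert of 434.8 kb between Kcnip4, which encodes a potassium channel interacting protein, and the adhesion receptor gene Adgra3. Pileups of 84, 81 and 89.4 tags stood over local input of 5.49, 6.12 and 6.19 times the genome-wide level. The fold of 3.42 ± 0.272 (SD, n = 3) varied less between lists than that near Dtwd2. This region lay just above the pileup limit.

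A region inside a noncoding gene was also among the 12 best ranked. At chr9:33041727-33042177 a peak of each list lay within the lncRNA gene Gm27166, 284.1 kb from Ets1, a transcription factor gene with known roles in lymphocytes. Its pileups were 94, 95 and 81.7 tags and its folds 3.78, 3.27 and 2.51, or 3.19 ± 0.642 (SD, n = 3). The fold was again highest in list 1, where local input was lowest, at 5.96 times the genome-wide level against 6.89 and 7.92.

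The others of the 12 best ranked had mean folds between 2.60 and 2.96. Near Fzd1, a Wnt receptor gene, the fold at chr5:4601368-4601766 was 2.96 ± 0.243 (SD, n = 3), with pileups of 131, 127 and 124 tags. At chr13:80024392-80024999, in the 2685 kb between Nr2f1, an orphan nuclear receptor gene, and Arrdc3, it was 2.91 ± 0.182. The region chr8:98255504-98255915 lay 768.8 kb from the cadherin gene Cdh8, with pileups of 112, 117 and 111.5 tags and a fold of 2.74 ± 0.389. A region 635.3 kb from Mmp16, a matrix metalloproteinase gene, at chr4:17217607-17217990, had pileups of 100, 101 and 106.7 and a fold of 2.66 ± 0.176. The spread was smallest at chr9:50284295-50284673, between Ncam1, a neural adhesion gene, and Plet1, with folds of 2.69, 2.59 and 2.51. The remaining regions of this rank were nearest to H2al1n, 4933412E24Rik, Defb41 and Cenpc1, with mean folds of 2.76, 2.91, 2.82 and 2.66. The one nearest to 4933412E24Rik overlapped the pseudogene Gm17892. All 12 had a mean local input between 4.56 and 14.3 times the genome-wide level, below the median of the desert regions. Because fold ranked them, nothing is read from this.

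**Figure D3:**
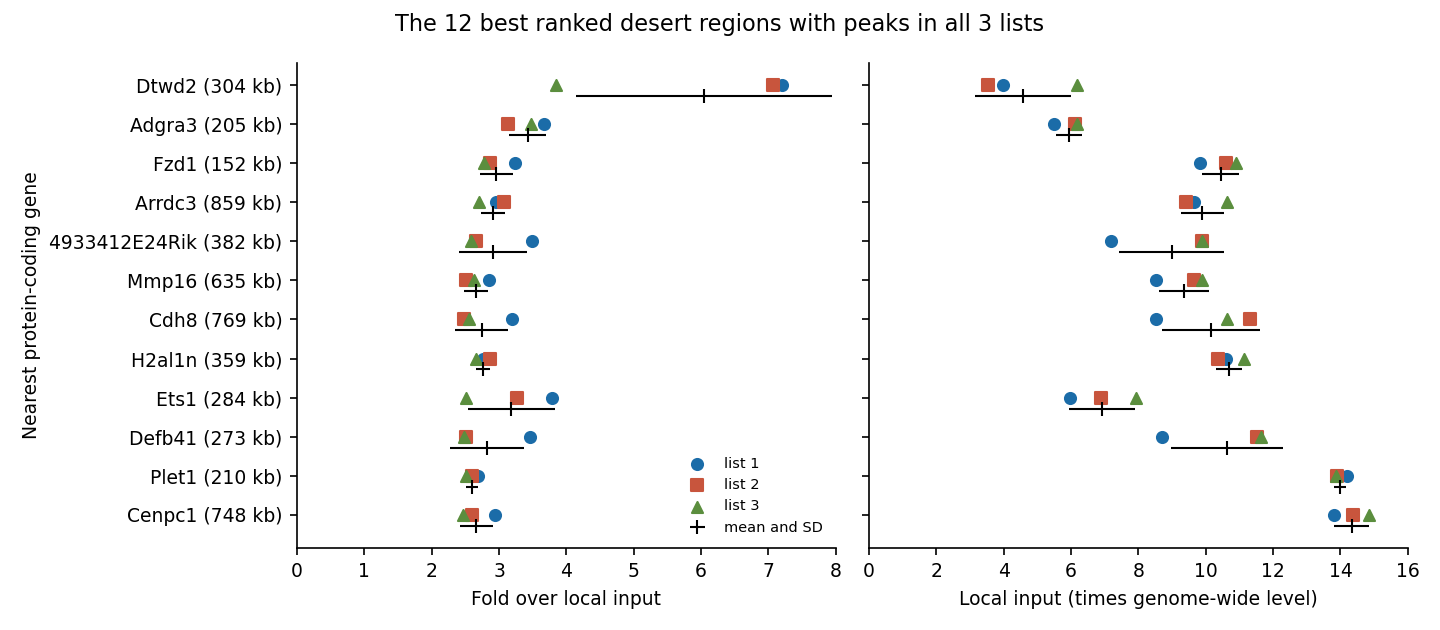
Fold over local input (left) and local input in multiples of the genome-wide level (right) for the 12 best ranked desert regions with peaks in all 3 lists, labelled by nearest protein-coding gene and distance; coloured points are the lists and the black bars give mean and SD (n = 3). The region near Dtwd2 has the highest mean fold, 6.04, and the lowest mean input, 4.56, and the other mean folds lie between 2.60 and 3.42.

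Among regions with peaks in only 2 lists, the highest ranks went to lists 1 and 3. At chr19:28155565-28155772, 103.2 kb from Glis3, a zinc finger transcription factor gene, the folds were 5.89 in list 1 and 4.33 in list 3, with pileups of 126 and 103.8 tags. Local input there was 5.09 and 5.74 times the genome-wide level. The region at chr11:13816094-13816704, 782.8 kb from Pom121l12, had folds of 3.59 and 3.01. Another, at chr4:26568523-26568697, 221.7 kb from Manea, had 3.19 and 3.74. Of the 6 best, 5 had peaks in lists 1 and 3, and the sixth, chr7:94353856-94354100 in the lncRNA gene Gm32647, had peaks in lists 1 and 2 with folds of 2.85 and 2.68. Lists 1 and 3 were also the most frequent pair, with 94 of the 179 regions in 2 lists, so nothing is read from this count.

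Regions of very high local input had pileups near the ceiling and folds below the median of each list. At chr18:17466881-17467155, 657.8 kb from the N-cadherin gene Cdh2, local input was 43.5, 48.5 and 48.0 times the genome-wide level. Pileups there were 290, 300 and 274.8 tags, close to the ceiling, and the folds were 1.64, 1.5 and 1.42. A region 238.8 kb from Tmx3 had inputs of 45.0 and 51.5 times that level and folds of 1.5 and 1.32 in lists 1 and 2.

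Many desert regions shared their pileups with regions elsewhere in the genome. Although peaks with equal length, summit offset and pileup had been left out, 79 of the 183 regions in all 3 lists had exactly the same 3 pileups as another merged region. This was 43.2%, against 39.6% of the 101 isolated regions inside genes and 61.1% of all 1291 regions in 3 lists. The 1291 had not passed the limits on pileup, copies and neighbours. They include regions with copied peaks, so their share is not like for like. By definition a copied peak equals another peak of its own list in pileup, though not in all 3 lists. A region had 1 to 27 such partners, with a median of 3. For 24 of the 79, a partner also had the same 3 folds, to the digits deposited. The count was made after the values had been seen, and no sequence was read, so it is not known whether partners share sequence.

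The largest group had pileups of 199, 205 and 186.4 tags in lists 1, 2 and 3 and comprised 28 regions on 14 chromosomes. Their merged widths ran from 265 to 487 bp with a median of 357, and their folds spanned 1.95 to 1.96 in list 1 and were 1.66 throughout in list 2. Desert regions nearest to Dsel, Slc2a12, Cdh12 and Rab28 belonged to it, and 6 of the 28 lay inside protein-coding genes. Another group had 231, 242 and 241.2 tags, with 25 regions on 16 chromosomes, among them the desert region nearest to Brinp3. On chromosome Y, the desert regions 374.2 kb from Gm20927 and 410.2 kb from Gm21340 had the same pileups of 108, 108 and 116.3 tags.

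Regions with and without partners differed in level. With partners, median folds were 1.96, 1.70 and 1.79 and median local input 24.0, 29.2 and 26.5 times the genome-wide level in lists 1, 2 and 3. For the 104 without, the median folds were 2.16, 1.88 and 1.98 and the median input 17.9, 18.2 and 18.1. Input was lower and fold higher without partners in each of the 3 lists, and this was not tested because pileup defines both sets. Of the 12 best ranked regions 2 had partners, that near Arrdc3 with 1 and that near Defb41 with 5. Leaving out all regions with partners, in 2 or 3 lists, reduced the desert regions from 362 to 224.

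The next comparison set desert regions beside the 188 isolated shared regions inside protein-coding genes. The desert minus genic difference of median folds was -0.08, -0.06 and 0.01 in lists 1, 2 and 3. Median pileup differed by -7, 8 and -14.9 tags, and median local input by less than 2 times the genome-wide level in each list. Desert peaks were narrower in 3 of 3 lists, with medians of 302, 277.5 and 291 bp against 324, 292 and 310 bp, a mean difference of -18.5 ± 3.78 bp (SD, n = 3). The exact paired permutation test over lists, two-sided, gave p = 0.25 for width, 0.5 for fold, 0.75 for pileup and 1 for local input, and all 4 adjusted p values were 1 (Benjamini-Hochberg). With 3 lists no p below 0.25 is possible, so none of these comparisons could pass 0.05.

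Desert regions were spread over the whole range of distances from genes. The distance to the nearest protein-coding gene end ran from 101.6 to 1826 kb, with a median of 334.9 kb. It was over 500 kb for 113 regions and over 1000 kb for 40. For all 1069 shared desert regions the median was 308.7 kb. The sequence over 100 kb from protein-coding genes covered 760.2 Mb, or 28.6% of the chromosome spans. It held 0.476 desert regions per Mb, against 0.183 isolated shared regions per Mb of protein-coding gene. Shared regions as a whole numbered 1069 in that sequence, or 1.41 per Mb, and 700 in the 1030 Mb of protein-coding gene. A higher density in deserts was thus not particular to the desert regions. Assembly gaps were not removed, which lowers densities where they lie.

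From 100 to 200 kb there were 0.420 desert regions per Mb, from 200 to 500 kb 0.492, from 500 to 1000 kb 0.483, and beyond 1000 kb 0.589. These rest on 101, 148, 73 and 40 regions. All shared regions had 1.319, 1.44, 1.363 and 1.664 per Mb over the same distances, also highest beyond 1000 kb. Median folds in list 1 were 1.95, 1.99, 2.01 and 1.97 in the same order, and in list 2 they were 1.70, 1.84, 1.83 and 1.69. Fold did not rise or fall steadily with distance in either list. The 4 farthest regions were nearest to Pcdh20, Pik3c3, Slc39a10 and Olfm4. The first of them, chr14:90297247-90297711, lay in the 4542 kb between the protocadherin genes Pcdh20 and Pcdh9. Its folds were 1.95 and 1.73 in lists 1 and 3. At chr14:81797135-81797568, 1774 kb from Olfm4, the pileups were 202, 196 and 206.6 tags and the folds 2.47, 2.05 and 2.81.

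Per chromosome the density ranged from 0.190 desert regions per Mb of desert on chromosome Y to 0.794 on chromosome 11. Chromosomes 16 and 18 followed with 0.705 and 0.693, each from 20 regions. Chromosome X held 32 at 0.576 per Mb, close to chromosome 1 with 34 at 0.577. Chromosome 19 held 3, none with peaks of all 3 lists.

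**Figure D4:**
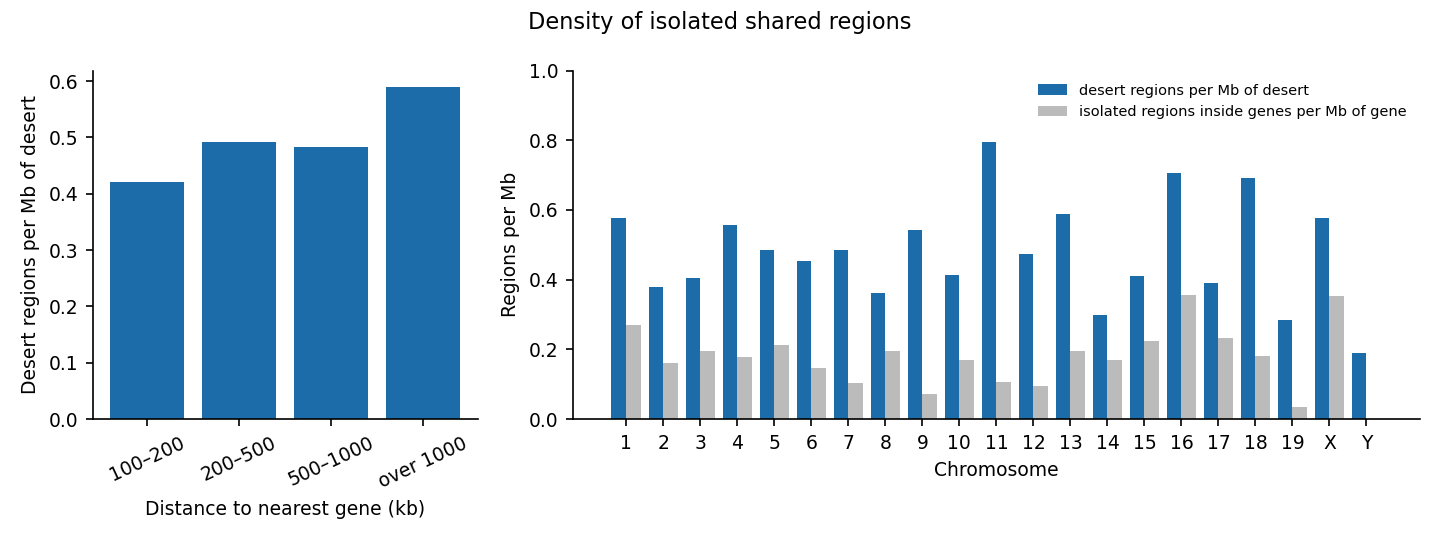
Desert regions per Mb of desert by distance to the nearest protein-coding gene end in kb (left) and by chromosome (right, blue), with isolated shared regions inside genes per Mb of gene in grey; bars start at 0 and have no error because each is 1 count. Density is 0.420 per Mb at 100 to 200 kb and 0.589 beyond 1000 kb, and desert bars exceed grey bars on every chromosome. All shared regions, not drawn, had 1.319 and 1.664 per Mb at these distances.

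The 362 regions occupied 274 deserts, of which 205 held 1 region, 55 held 2, 10 held 3, 3 held 4 and 1 held 5. The desert with 5 was the 3094 kb between Ncam2, a neural adhesion gene, and Mrpl39, a mitochondrial ribosomal protein gene, on chromosome 16. Peaks of all 3 lists were present at 3 of them. The first of them, at chr16:81859292-81859743, had pileups of 114, 111 and 112.4 tags and folds of 2.41, 2.89 and 2.99. It was 1 of 10 among the 183 where list 1 gave the lowest fold. At 467.1 and 1294 kb from Ncam2 the folds were 2.45, 1.84 and 2.09 and then 1.82, 1.43 and 1.60 in lists 1, 2 and 3.

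On chromosome X, 4 regions lay in the 1381 kb between Gm52435 and Tmem47. The one at chrX:80560603-80560854 had pileups of 183, 189 and 173 tags and folds of 2.5, 2.42 and 2.29, and that at 80624049 to 80624245 had 228, 237 and 234.5 tags with folds of 1.79, 1.79 and 1.87. Both pileup sets recurred elsewhere, the first in a group of 8 regions and the second in a group of 3. A further 4 regions lay in the 2927 kb between Brinp3 and Pla2g4a, a phospholipase gene, on chromosome 1, where 1 had peaks in all 3 lists. Another 4 lay in the 3152 kb between Cdh2 and the desmosomal cadherin gene Dsc3, and 3 of these had peaks in all 3 lists.

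The deserts were not empty of annotation. A gene of another kind overlapped 28 of the 362 regions: a lncRNA gene in 20, a pseudogene in 2, an immunoglobulin locus in 5 and the locus Gm30124 in 1. Of any annotated kind, the nearest gene was a pseudogene for 172 regions and a lncRNA gene for 109, and its nearer end lay a median of 49.5 kb away. Only 110 regions were over 100 kb from every annotated gene. Among the lncRNA genes, Mir99ahg, the host gene of a microRNA cluster, held chr16:77438648-77438849, with pileups of 235, 247 and 235.4 tags and folds of 1.56, 1.67 and 1.70. Pax6os1, antisense to the eye and brain regulator Pax6, held chr2:105560987-105561305, with 176, 176 and 175.9 tags and folds of 1.56, 1.46 and 1.42.

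The 5 regions in immunoglobulin loci lay in gene deserts only because the annotation does not class antibody gene segments as protein-coding. Heavy and kappa light chain loci are assembled from such segments during B cell development. The 2.75 Mb of Igh on chromosome 12 held 3 desert regions and the 3.17 Mb of Igk on chromosome 6 held 2. Igl, of 0.234 Mb, held no merged region. At chr12:114330716-114330888, 1.91 kb from the segment Ighv8-1, a pseudogene, pileups were 100 and 95.1 tags and folds 3.12 and 3.70 in lists 1 and 3. Local input there was 7.76 and 6.19 times the genome-wide level. The second Igh region, 6.41 kb from Ighv1-13, was the opposite in level, with 290 and 300 tags and folds of 1.56 and 1.30 in lists 1 and 2. Its input of 45.8 and 56.0 times the genome-wide level was the highest of all desert regions in list 2. The third, at chr12:115580242-115580557, had peaks in all 3 lists with folds of 1.97, 1.76 and 1.95. In Igk, chr6:69035872-69036295 had 175, 163 and 151.8 tags and folds of 1.91, 1.66 and 1.63, and the other had folds of 2.09 and 2.40 in lists 1 and 2. No region overlapped a segment itself. Counting both loci as genes left 357 desert regions.

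The last question was which protein-coding genes lay nearest to the desert regions. There were 306 such genes, and none was nearest to more than 3 regions. Genes were grouped in lists that do not hold every gene of a class, so counts and shares are for listed genes only. The desmosomal cadherin gene Dsc3, nearest to 1 region, is outside the cadherin list. Listed cadherin and protocadherin genes, which encode adhesion molecules and often border long deserts, were nearest to 19 regions, or 5.25%, with 12 of them in all 3 lists. They make up 0.473% of protein-coding genes, but 5.30% of the desert sequence lies nearest to them. The share of regions was thus close to the share of desert sequence. Cdh2 and Pcdh7 were each nearest to 3 and Cdh20 and Pcdh11x each to 2. Near Pcdh7, chr5:56493332-56493649 had pileups of 144, 134 and 137.4 tags and folds of 2.70, 2.05 and 2.35.

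Genes listed under synaptic adhesion and axon guidance were also nearest to 19 regions, or 5.25%, against 6.33% of desert sequence. They included Robo2, Epha7 and Cntn5 with 2 regions each. Ncam2, nearest to 3, and Efnb2, nearest to 2, are outside this list, and the calcium channel gene Ryr2 is outside that of ion channels. Developmental transcription factor genes were nearest to 10, or 2.76%, against 3.24% of the sequence, and ion channel and neurotransmitter receptor genes to 10, or 2.76%, against 2.87%. At 638.1 kb from Bcl11a, a repressor of fetal globin genes, the folds were 2.08, 1.71 and 1.91 in lists 1, 2 and 3. Genes with predicted or RIKEN names were nearest to 28, or 7.73%, against 13.9% of the sequence, and zinc finger protein genes to 6, or 1.66%, against 1.07%. Growth factor and morphogen genes were nearest to 0 of 362 and to 0.754% of the sequence. Olfactory, vomeronasal and taste receptor genes were nearest to 1, or 0.276%, against 0.447% of the sequence.

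Genes listed under the pathways named in the series and under the B lineage were nearest to 1 or 2 desert regions per gene list. Little desert sequence lies nearest to these listed genes. Of RAS-ERK and MNK components, Rps6ka3, a kinase downstream of ERK, and Spred2, an inhibitor of the pathway, were nearest to 1 region each. The Rps6ka3 region, chrX:159151054-159151336, lay 104.5 kb away with pileups of 218, 216 and 219.1 tags and folds of 1.41, 1.37 and 1.35. At Spred2, 132.8 kb away, the pileups were 199, 205 and 200.8 and the folds 1.96, 1.66 and 1.60, and those of lists 1 and 2 equalled the largest group of equal pileups. These 2 of 362, or 0.552%, compare with 0.464% of the desert sequence. The single hit of the JAK-STAT list was Il1rapl1, a synaptic member of the interleukin 1 receptor family that the name pattern took in, or 0.276% of regions against 0.305% of the sequence. Ebf1, a transcription factor that specifies B cells, was the nearest gene of the B lineage list, 359.9 kb from chr11:45367827-45368202, where pileups were 84 and 83 tags and folds 1.94 and 1.92 in lists 1 and 2. That list had 0.276% of regions and 0.132% of the sequence. No test was made of these counts.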

How the data were processed

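The measurements were 3 tables of YBX1 peaks and 3 lists of their summits from BaF3 cells with JAK2 V617F. The submitters' processing notes name Trim Galore, MACS2 and GRCm38. The aligner and what it did with reads of repeated sequence are not given in the sources used here. Per the file headers, MACS 2.1.1.20160309 called peaks in each replicate at a q of 0.01, with tags extended to 160 bp, a single tag (1) retained at each position of a strand, and the deeper library scaled to the shallower. In the deposited tables the pileup is a signal in tags, and the fold is a ratio over local input. The authors' caller also gave −log10 p and −log10 q.

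Local input was obtained from the fold and the pileup. A Poisson −log10 p computed with it lay within a median of 9.42e-05, 8.38e-05 and 4.67e-04 of the deposited one. Values are given as multiples of the genome-wide level, 4.04, 4.12 and 4.04 tags. Genes were the 49599 entries used of a RefSeq table of GRCm38.p6, of which 21775 are protein-coding. Outside chromosome Y, entries with a start under 3 Mb were dropped. Territory by distance and by nearest gene was measured on a grid of points. Per chromosome and inside genes it came from gene intervals, which gave 760.0 Mb of desert in all. The tests ran in Python 3.11.15. Selection, with copies flagged as in the real lists, and the paired test were checked on simulated data. Recovery of input was run there too, but the simulated fold had the form that recovery inverts, so that check could not fail.

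The members, the gene lists and the rule for named regions were chosen with earlier results of these data known. The rule took the 12 best ranked regions in all 3 lists, the 6 best in 2 lists, the 4 farthest, those at the limits, those of extreme input or width, and the 4 fullest deserts. Regions named beside noncoding genes, antibody loci, gene lists or equal pileups fall outside it and were chosen after their values were seen. Alternatives were another overlap, pileup, −log10 q, isolation and distance limit, all 3 lists, all gene kinds and leaving out each replicate. The planned sequence features, such as GC and CCAAT, need a genome sequence and were not analysed here. None of the regions overlapped a promoter window of the RefSeq sequence table, so no sequence is printed.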

Additional observations from a re-analysis of the deposited data

How the results depend on the processing

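The number of desert regions was 183 with peaks required in all 3 lists, 110 with all annotated genes in place of protein-coding ones and 224 without regions of equal pileups, the last an alternative chosen after seeing the data. It ran from 258 to 290 with a replicate left out. The mean of the median folds moved by more than its SD at a −log10 q of at least 5, to 2.02. The mean of the median local inputs moved to 22.99 at a pileup minimum of 100, 20.39 at a −log10 q of at least 5, 19.99 with all annotated genes and 18.74 without regions of equal pileups, and it ran from 20.45 to 23.03 with a replicate left out. The difference in fold from regions inside genes, -0.045 here, had the other sign at a −log10 q of at least 5 (0.0019), with all annotated genes (0.044) and without regions of equal pileups (0.0065). The difference in local input, -0.26, turned at a pileup minimum of 100 (0.205), and without replicates it ran from -1.84 to 0.956. The difference in pileup, -4.63, turned in regions of all 3 lists (0.762), and without replicates it ran from -11.9 to 6.5. The mean difference in peak width kept its sign in 12 of 12 alternatives, but its size changed. From -18.5 bp here, it went to -19.67 at a pileup minimum of 100 and -7.5 at an isolation limit of 50 kb. With all annotated genes it was -6.33 ± 10.02 bp (SD, n = 3), and desert peaks were then not narrower in every list. No p in this family can reach 0.05, so signs alone are compared, and the cause of each change was not tested. Medians of desert and genic regions were paired by list. For immunoprecipitate against input, the groups that share replicate numbers, there is no such test. No paired analysis was possible because the inputs enter the files only through the caller, which had already set each against the immunoprecipitate of its number. The lists hold called peaks only, so depth at regions missing from a list is unknown.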
